A study of Mus musculus with 4 samples.

Results

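Kruppel-like factors (KLFs) are zinc finger transcription factors, and the 10 genes described here, Klf2, Klf3, Klf4, Klf5, Klf6, Klf7, Klf9, Klf10, Klf13 and Klf15, were chosen by symbol from the 54152 gene symbols of the deposited table. All 10 were in the table and all 10 passed the filter on low counts, with between 352 and 4151 counts in any library. Whole uteri were taken on pregnancy day 4 from mice of the C57 strain, and their RNA was sequenced as 2 libraries labelled P38α dd and 2 labelled P38α ff. The series title sets P38α knockout against wild-type uteri. The sources used here do not give the age of the mice, the deleted part of the p38α gene Mapk14, any Cre transgene or the cells it would act in, nor whether uteri were pooled for a library.

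A KLF binds GC-rich and CACCC-type DNA through zinc fingers at its carboxyl end, and the other end of the protein decides which partners it brings. Klf2, Klf4, Klf5, Klf6 and Klf7 are usually counted as activators that work with acetyltransferases, Klf9, Klf10 and Klf13 as repressors that bind SIN3A, and Klf3 as a repressor that binds CtBP. In the mouse uterus the family is known for its ties to the ovarian steroids. Klf9 acts as a partner of the progesterone receptor, Klf5 in the epithelium is needed for implantation, and Klf15 holds back DNA replication there.

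The libraries held 24619850 and 30868922 counts in dd, against 32451670 and 30202955 in ff. Mapk14 itself did not fall with the dd label, at 109.1 ± 5.79 CPM in dd and 89.7 ± 3.78 CPM in ff (SD, n = 2 each; CPM scales each count to 1 common library size after TMM normalization). Its log2 change of 0.28 did not pass (edgeR adjusted p = 0.12). Counts over a whole gene do not show the loss of some exons, so each direction below rests on the labels dd and ff alone. No label ties a replicate to an animal of its own, so the spread behind each p-value is that between these 4 samples and may be technical. Markers of epithelium, stroma, smooth muscle and endothelium were detected in all 4 libraries. The uterine gland genes Prss28 and Prss29 had no counts in either dd library. They had 55.4 and 129.7 CPM in ff replicate 1, and 0.193 and 0.321 CPM in ff replicate 2. The whole list of 5 gland genes went the other way, summing to 417.5 and 447.3 CPM in dd, against 385.4 and 300.3 CPM in ff. Of its 4 tested genes, 3 had log2 changes above 0 and 1 below, with a median of 0.66.

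The promoters of Klf2 and Klf9 are shown because these genes had the largest and the next largest FPKM of the 10 in ff and both fell in dd. Windows run from 250 bases before to 50 bases after the RefSeq start on GRCm38.p6, and such windows were matched by symbol for 8 of the 10 genes, not for Klf5 and Klf10. Capitals mark matches, on either strand, to CACCC (the core of KLF sites), GGGCGG (the GC box shared by KLF and SP proteins), TGACG (a cyclic AMP response half-site), CCAAT and the MEF2 consensus. The Klf2 window is chr8:72318812-72319111 on the plus strand and the Klf9 window is chr19:23140976-23141275 on the plus strand.
Klf2: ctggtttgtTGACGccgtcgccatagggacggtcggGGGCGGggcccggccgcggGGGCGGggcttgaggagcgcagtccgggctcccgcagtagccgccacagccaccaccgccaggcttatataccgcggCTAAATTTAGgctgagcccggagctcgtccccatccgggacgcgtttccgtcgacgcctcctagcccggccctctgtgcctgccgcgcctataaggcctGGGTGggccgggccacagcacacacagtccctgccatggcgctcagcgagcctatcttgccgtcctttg
Klf9: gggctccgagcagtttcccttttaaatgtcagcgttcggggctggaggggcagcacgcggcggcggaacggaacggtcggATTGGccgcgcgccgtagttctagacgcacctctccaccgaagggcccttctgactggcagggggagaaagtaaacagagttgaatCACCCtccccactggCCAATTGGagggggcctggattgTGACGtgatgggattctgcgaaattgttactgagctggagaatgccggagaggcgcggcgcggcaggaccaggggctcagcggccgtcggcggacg
The Klf2 window held 1 MEF2 match, CTAAATTTAG, from 118 to 109 bases before the start, besides 1 CACCC, 2 GGGCGG and 1 TGACG. MEF2 factors are known activators of Klf2 in endothelial cells. The Klf9 window held no MEF2 match and no GGGCGG, with 1 CACCC, 1 TGACG and 3 CCAAT matches, of which 2 overlapped on opposite strands.

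Over the 8 windows, CACCC was found in 6, against 57.5% of all 32851 RefSeq windows of this length. GGGCGG was found in 7, against 35.7% of all windows. Matches overlapped each other in 4 of the 8 windows. A MEF2 match was found in 1, against 3.19% of all windows. TGACG was found in 6 (20.8% of all windows) and CCAAT in 4 (37.4%). The steroid receptor half-site AGAACA was found in none, against 19.0% of all windows. A match describes letters in the window, and binding was not measured.

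**Figure D1:**
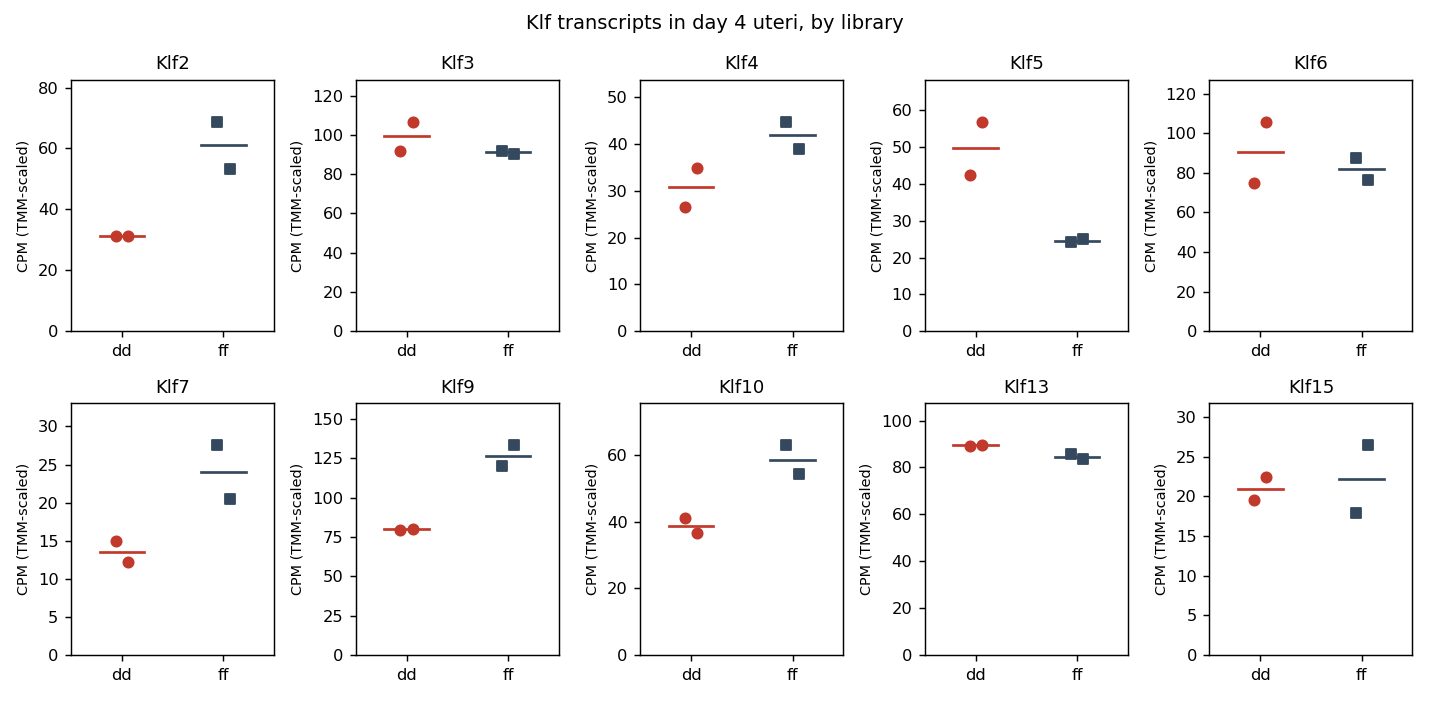
CPM (TMM-scaled) of the 10 Klf genes in each of the 4 libraries, dd as circles and ff as squares, with lines at the means of 2 libraries and an axis from 0 in every panel. Klf5 and, by a small margin, Klf13 stood higher in both dd libraries than in either ff library, and Klf2, Klf7, Klf9, Klf10 and Klf4 stood lower in both.

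Of the 10 Klf genes, 4 changed between the groups in edgeR's quasi-likelihood test at an adjusted p under 0.05: Klf5 rose in the libraries labelled dd, and Klf2, Klf9 and Klf10 fell. Over all 18530 genes tested, 8.39% were called in either direction, 4.52% higher and 3.86% lower. The median log2 change of the 10 genes was −0.26, against 0.00 over all genes tested. The dd and ff libraries did not overlap in CPM for 7 of the 10 genes, which was true of 62.8% of all genes tested. The exceptions were Klf3, Klf6 and Klf15. Without dd replicate 1, dd replicate 2, ff replicate 1 or ff replicate 2, edgeR called 1, 0, 0 and 1 of the 10 genes, and 607, 350, 90 and 1198 of all genes.

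Klf5 (chromosome 14, 99298691 to 99315036, plus strand, mm10), an activator of dividing epithelial cells, had 42.5 and 56.9 CPM in the libraries labelled dd, against 24.3 and 24.9 CPM in ff. Both dd libraries lay above both ff libraries, and the dd pair was the more scattered. The log2 change was 1.02 (SE 0.162), or 2.02-fold with a 95% interval of 1.51 to 2.70 (edgeR adjusted p = 0.0344). The call was lost without dd replicate 2 (log2 0.79, edgeR adjusted p = 0.0709), ff replicate 1 (1.00, 0.124) or ff replicate 2 (1.03, 0.0738). With limma-trend on log2(FPKM + 0.5) it was also lost (adjusted p = 0.0523). Klf5 has a fold of 2.02 in the authors' deposited table, where its p without adjustment is 0.0293.

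Markers of epithelium moved with Klf5. Of 14 epithelial genes, 7 were called higher and 0 lower, all 14 had log2 changes above 0 with a median of 0.99, and none was at 0 counts. Over all the cell type lists 40 genes were called, against 17, 9, 3 and 34 without dd replicate 1, dd replicate 2, ff replicate 1 or ff replicate 2. The epithelial genes' summed level was 3051 and 3566 CPM in dd, against 1306 and 1587 CPM in ff. Relative to that sum, Klf5 stood at 13.9 and 16.0 CPM per 1000 marker CPM in dd, against 18.6 and 15.7 in ff, so the ranges overlapped. Numbers of cells of a type and RNA per cell cannot be told apart in bulk uterine RNA, and the part of the markers in the Klf5 difference was not tested.

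Klf4 (chromosome 4, 55527143 to 55532466, minus strand), which drives barrier formation in epithelia and is also made by endothelium, had 26.6 and 34.9 CPM in dd, against 44.8 and 38.9 CPM in ff. The groups did not overlap, but its log2 change of −0.44 (95% interval −0.87 to −0.02) did not pass (edgeR adjusted p = 0.16). Per 1000 CPM of epithelial markers it stood at 8.71 and 9.78 CPM in dd, against 34.3 and 24.5 in ff. Within each library, the ratio of Klf4 to Klf5 in FPKM was 1.07 and 1.04 in dd, against 3.14 and 2.67 in ff. The 2 genes were thus at about equal FPKM in the dd libraries and well apart in ff. Klf4 was lower, and Klf5 and the epithelial sum were higher, in both dd libraries, so both ratios had to differ this way. With 2 libraries against 2, an exact two-sided permutation test of such a ratio cannot give a p below 0.333.

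Klf2 (chromosome 8, 72319033 to 72321656, plus strand), a factor of resting endothelium and of T cells, had 31.3 and 31.4 CPM in the libraries labelled dd, against 68.8 and 53.3 CPM in ff. The dd libraries were nearly equal and both lay below the lower ff library. The log2 change was −0.96 (SE 0.145), a fold of 0.514 with a 95% interval of 0.396 to 0.666 (edgeR adjusted p = 0.0314). The call was lost without dd replicate 1 (log2 −0.95, edgeR adjusted p = 0.0916), dd replicate 2 (−0.96, 0.100) or ff replicate 1 (−0.76, 0.0768). In the authors' deposited table the fold is 0.514, with a p of 0.0389 before adjustment.

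Markers of endothelium moved with Klf2. All 10 were called lower, with a median log2 change of −0.94, none was at 0 counts, and their sum was 886.4 and 844.6 CPM in dd, against 1776 and 1587 CPM in ff. Klf2 stood at 35.3 and 37.2 CPM per 1000 CPM of these markers in dd, against 38.7 and 33.6 in ff, and the dd values lay inside the ff range. For Klf4 the same ratio was 30.0 and 41.3 in dd, against 25.2 and 24.5 in ff. The part of the endothelial markers in these differences was not tested.

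**Figure D2:**
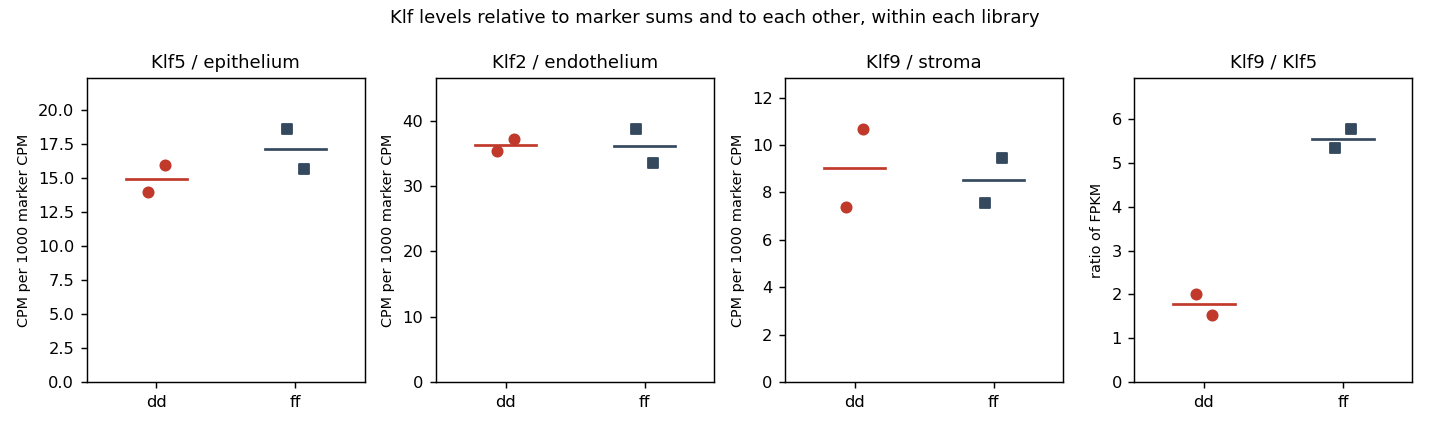
Klf5, Klf2 and Klf9 in CPM per 1000 CPM of summed epithelial, endothelial and stromal markers, and the ratio of Klf9 to Klf5 in FPKM, in each of the 4 libraries (dd circles, ff squares, lines at means of 2, axes from 0). The 3 marker ratios overlapped between dd and ff. Klf9 over Klf5 was 2.02 and 1.52 in dd, against 5.34 and 5.78 in ff. As Klf9 was lower and Klf5 higher in both dd libraries, that ratio had to be apart and adds no evidence of its own.

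Klf6 (chromosome 13, 5861482 to 5870394, plus strand), an early gene of tissue injury, had 75.1 and 105.8 CPM in dd, against 87.7 and 76.5 CPM in ff. The dd values enclosed both ff values, and the log2 change of 0.14 did not pass (edgeR adjusted p = 0.657), with a 95% interval of −0.34 to 0.62. It was −0.13 without dd replicate 2.

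Klf7 (chromosome 1, 64029447 to 64122282, minus strand), known from nerve and fat cell development, had the lowest FPKM of the 10 in both groups. It had 14.9 and 12.2 CPM in dd, against 27.5 and 20.5 CPM in ff. Both dd libraries lay below both ff libraries, and the log2 change was −0.82 (SE 0.201, 95% interval −1.34 to −0.30), which did not pass (edgeR adjusted p = 0.0753). DESeq2 called it lower (adjusted p = 0.00994), with 1 of the 10 genes called higher and 4 lower, in a test that called 14.8% of all genes, 7.88% higher and 6.97% lower. Per 1000 CPM of endothelial markers Klf7 stood at 16.8 and 14.5 in dd, against 15.5 and 12.9 in ff.

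Among the genes of SIN3A-binding repressors, Klf9 (chromosome 19, 23141226 to 23168134, plus strand) had 79.5 and 80.3 CPM in the libraries labelled dd, against 120.1 and 133.3 CPM in ff. Klf9, induced by glucocorticoid and thyroid hormone, is the progesterone receptor partner named above. The dd libraries were nearly equal and far below both ff libraries. The log2 change was −0.66 (SE 0.0924), a fold of 0.631 with a 95% interval of 0.534 to 0.744 (edgeR adjusted p = 0.0283). The call was lost without dd replicate 1, dd replicate 2, ff replicate 1 or ff replicate 2 (edgeR adjusted p = 0.0843, 0.0897, 0.0709 and 0.0552), at log2 changes between −0.74 and −0.59. In the authors' deposited table the fold is 0.631, with a p of 0.15 before adjustment.

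Klf10 (chromosome 15, 38291463 to 38300706, minus strand), an early gene of the TGF-beta response, had 41.0 and 36.5 CPM in dd, against 63.0 and 54.4 CPM in ff. Both dd libraries lay below both ff libraries. The log2 change was −0.60 (SE 0.118), a fold of 0.660 with a 95% interval of 0.535 to 0.815 (edgeR adjusted p = 0.049). This call was lost without dd replicate 1, dd replicate 2, ff replicate 1 or ff replicate 2 (edgeR adjusted p = 0.102, 0.166, 0.167 and 0.0569), and with limma-voom or limma-trend (adjusted p = 0.0531 and 0.0651). In the authors' deposited table the fold is 0.660, with a p of 0.195 before adjustment.

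Stromal markers moved with Klf9 and Klf10. Of 12, 6 were called lower and 0 higher, with a median log2 change of −0.68, none was at 0 counts, and their sum was 10788 and 7515 CPM in dd, against 15864 and 14074 CPM in ff. Klf9 stood at 7.37 and 10.7 CPM per 1000 CPM of stromal markers in dd, against 7.57 and 9.47 in ff. Klf10 stood at 3.80 and 4.86 in dd, against 3.97 and 3.87 in ff. Both ratios overlapped between the groups. Relative to the epithelial sum, Klf9 was at 26.1 and 22.5 in dd, against 91.9 and 84.0 in ff. That sum was higher and Klf9 lower in both dd libraries, so this ratio had to be lower in dd. Endothelial, pericyte and macrophage markers were also lower in dd, with medians of −0.94, −0.93 and −0.88. Klf9 and Klf10 were not set against those sums. The part of the stromal or of these other markers was not tested.

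Klf13 (chromosome 7, 63886351 to 63938915, minus strand), first known as a factor of activated T cells, was nearly level at 89.3 and 89.4 CPM in dd, against 85.6 and 83.5 CPM in ff. Its log2 change of 0.08 had a 95% interval of −0.12 to 0.28 and did not pass (edgeR adjusted p = 0.544), and it was −0.0040 when the library size alone set the scale. Klf9 and Klf13 are close relatives, and a test of the difference between their changes was not run.

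Klf3 (chromosome 5, 64803388 to 64832901, plus strand), the CtBP-binding repressor, had 91.7 and 106.8 CPM in dd, against 91.9 and 90.4 CPM in ff. The lower dd library lay inside the ff range. Its log2 change was 0.12 (95% interval −0.15 to 0.39, edgeR adjusted p = 0.483).

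Klf15 (chromosome 6, 90462576 to 90475238, plus strand), a glucocorticoid-induced regulator of amino acid and glucose metabolism, had 19.6 and 22.4 CPM in dd, against 17.9 and 26.5 CPM in ff. The ff values enclosed both dd values. The log2 change was −0.08 (95% interval −0.64 to 0.49, edgeR adjusted p = 0.843), and it was 0.02 without dd replicate 1 and 0.23 without ff replicate 2.

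**Figure D3:**
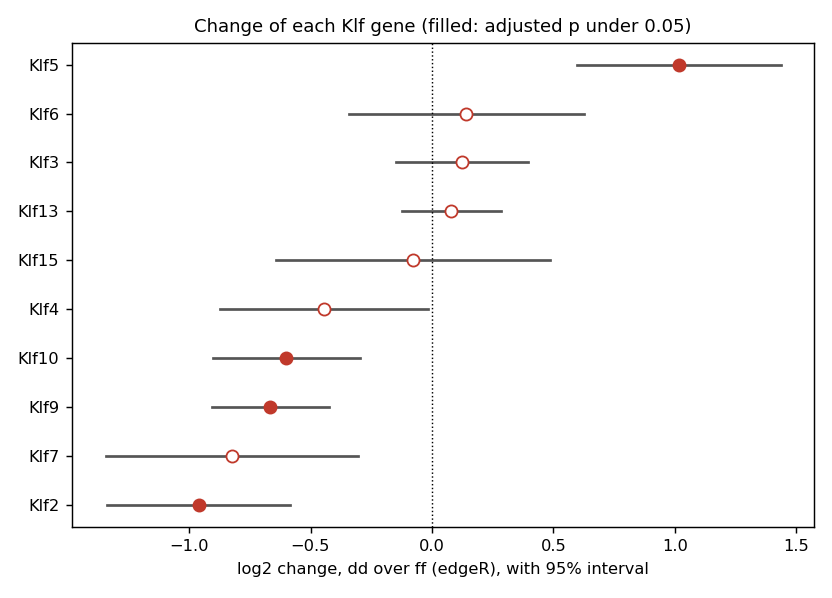
Log2 change of dd over ff for each Klf gene from edgeR, with 95% intervals and filled points for an adjusted p under 0.05, ordered from highest to lowest. Klf5 is the only filled point on the right, at 1.02, and Klf10, Klf9 and Klf2 are the filled points on the left between −0.60 and −0.96.

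Levels of different genes were compared in FPKM, which divides by gene length. In dd the order was Klf6 at 20.6 ± 5.10, Klf2 at 17.0 ± 0.152, Klf9 at 16.6 ± 0.227, Klf13 at 11.9 ± 0.0943, Klf4 at 10.1 ± 1.99, Klf5 at 9.56 ± 2.02, Klf10 at 9.26 ± 0.693, Klf3 at 8.82 ± 1.01, Klf15 at 7.52 ± 0.768 and Klf7 at 1.67 ± 0.218 FPKM (SD, n = 2). In ff it was Klf2 at 33.0 ± 6.01, Klf9 at 26.3 ± 1.88, Klf6 at 18.7 ± 1.84, Klf10 at 14.0 ± 1.47, Klf4 at 13.7 ± 1.38, Klf13 at 11.2 ± 0.224, Klf3 at 8.10 ± 0.108, Klf15 at 7.94 ± 2.15, Klf5 at 4.73 ± 0.0733 and Klf7 at 2.95 ± 0.620 FPKM. Neighbours whose libraries overlapped were Klf6 with Klf2, Klf4 with Klf5, Klf5 with Klf10 and Klf10 with Klf3 in dd, and Klf10 with Klf4 and Klf3 with Klf15 in ff. Klf5 thus stood at rank 6 in dd, among Klf4, Klf10 and Klf3, and at rank 9 in ff, apart from Klf15 above it and Klf7 below it.

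The 10 genes summed to 105.5 and 120.3 FPKM in dd, against 146.0 and 135.3 FPKM in ff. Klf5 made up 7.70% and 9.13% of that sum in dd, against 3.20% and 3.53% in ff. Klf2 made up 16.0% and 14.2% in dd, against 25.5% and 21.3% in ff. The share of Klf9 was 15.6% and 13.9% in dd, against 17.1% and 20.4% in ff. Every one of these shares was apart between the groups, but so were shares of genes that were not called. Klf13, nearly level in CPM, made up 11.2% and 9.91% in dd, against 7.79% and 8.17% in ff, and Klf3 and Klf6 were also apart. The sum itself was lower in both dd libraries, so a level gene gains share there.

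**Figure D4:**
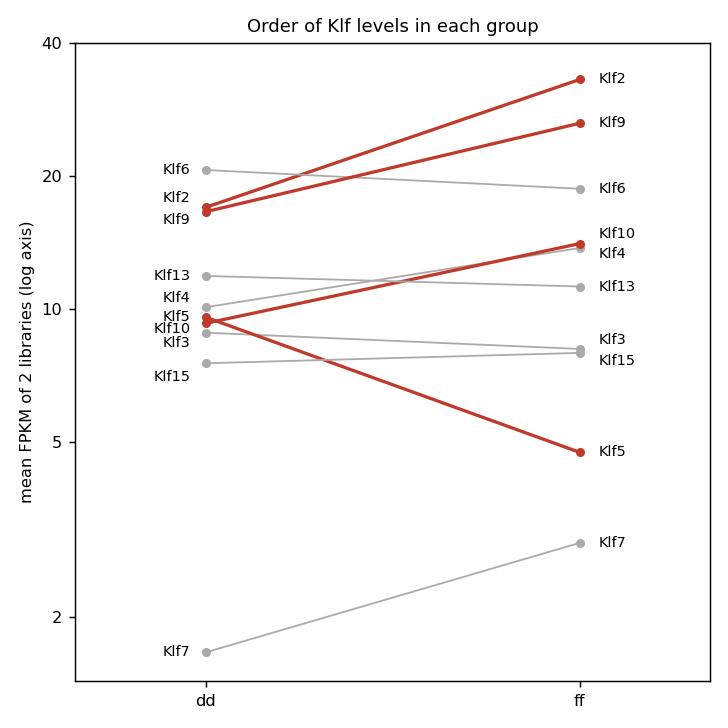
Mean FPKM of 2 libraries for each Klf gene in dd (left) and ff (right), on a log axis, with called genes in red and the rest in grey. The lines of Klf2 and Klf9 start at 17.0 and 16.6 FPKM in dd and end at 33.0 and 26.3 FPKM in ff, and the Klf5 line slopes the other way, at 9.56 FPKM in dd and 4.73 FPKM in ff.

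The rest of the KLF family and the related SP proteins, which share the zinc fingers, gave 1 call. Of 16 such genes 11 were tested, and 1 was called lower and 0 higher, with a median log2 change of −0.21. That share is near the 8.39% called over all genes tested. The call was Sp7, the osteoblast factor, at 0.464 ± 0.00241 CPM in dd and 1.73 ± 0.411 CPM in ff (log2 −1.89, edgeR adjusted p = 0.0402), with 11 and 14 counts in dd and 48 and 63 in ff. It lost its call without any 1 of the 4 libraries (edgeR adjusted p between 0.1 and 0.134). Sp1, found in most cells, was level at 97.7 ± 4.49 CPM in dd and 97.1 ± 0.555 CPM in ff. Sp2 had a log2 change of −0.38 (edgeR adjusted p = 0.0984) and Klf1, the red cell factor, one of −1.14 at under 1 CPM (edgeR adjusted p = 0.173). Sp6 and Sp8 had no counts.

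Among 13 corepressors and coactivators of KLF proteins 1 was called, a share near the 8.39% of all genes. The histone deacetylase gene Hdac2 rose to 206.7 ± 2.74 CPM in dd, against 151.6 ± 1.99 CPM in ff (log2 0.45, edgeR adjusted p = 0.0459). Hdac1 missed the threshold at a log2 change of 0.52 (edgeR adjusted p = 0.0597), and Sin3a and Ctbp1 had changes of 0.05 and 0.13. The Hdac2 call was lost without any 1 library (edgeR adjusted p between 0.108 and 0.168) and under upper quartile factors (0.0566) or the library size alone (0.0705). Of 7 ubiquitin ligase genes for KLF proteins, edgeR called 0, with 1 lower and 0 higher at an unadjusted p under 0.05, and DESeq2 called 1 lower, Btrc. Its log2 change was −0.50 (edgeR adjusted p = 0.0586).

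In the pathway from the kinase ERK5 to MEF2 factors, which drives Klf2 and Klf4 in endothelium, Mef2a was the only call of 7 genes. The share called over all genes tested was 8.39%. Mef2a had 129.2 and 141.6 CPM in dd, against 191.8 and 223.8 CPM in ff (log2 −0.62, edgeR adjusted p = 0.0464). Mef2c (log2 −0.40, edgeR adjusted p = 0.106) and Mapk7, the ERK5 gene (−0.29, 0.126), did not pass. Mef2a lost its call without any 1 library (edgeR adjusted p between 0.0862 and 0.143) and in limma-trend on FPKM (0.0615). Endothelial and stromal markers were lower in the same libraries, with medians of −0.94 and −0.68.

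Of 6 steroid receptor and chaperone genes upstream of Klf9 and Klf15, Pgr, the progesterone receptor, and Fkbp4, a receptor chaperone, rose and 0 fell. The share called higher over all genes tested was 4.52%. Pgr had 216.4 and 212.7 CPM in dd, against 151.0 and 154.1 CPM in ff (log2 0.49, edgeR adjusted p = 0.0392). Both dd libraries lay above both ff libraries for Pgr, where Klf9 lay below. Nr3c1, the glucocorticoid receptor, had a log2 change of −0.04 (edgeR adjusted p = 0.799). Among 7 genes directly induced by glucocorticoid or progesterone receptors, Sgk1, a salt transport kinase, was the only edgeR call. It rose to 227.7 ± 20.6 CPM in dd, against 43.1 ± 2.72 CPM in ff (log2 2.40, edgeR adjusted p = 0.00974). Of the 7 log2 changes 3 were above 0 and 4 below, with a median of −0.29. At an unadjusted p under 0.05 in edgeR, 2 were higher and 3 lower. DESeq2 called 1 higher and 1 lower, the latter being Dusp1 (edgeR log2 −0.90, adjusted p = 0.105). Fkbp5 and Zbtb16 did not pass at −0.29 and −0.72 (edgeR adjusted p = 0.103 and 0.181). Pgr and Fkbp4 lost their calls without any 1 library, Pgr at edgeR adjusted p between 0.0904 and 0.145 and Fkbp4 between 0.0837 and 0.106. Pgr also lost it when the library size alone set the scale (0.0544).

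Of 7 endothelial genes linked to Klf2 and Klf4, 6 fell and 0 rose, with a median log2 change of −1.08. Over all genes tested 3.86% were called lower, and this list too was chosen with earlier results of these data known. Nos3, the endothelial nitric oxide synthase, had 20.1 and 17.6 CPM in dd, against 44.0 and 35.7 CPM in ff (log2 −1.08, edgeR adjusted p = 0.0286). The anticoagulant receptor gene Thbd (−1.19), S1pr1 (−0.89), Tek (−1.47), Cdh5 (−1.36) and Vcam1 (−0.91) were the other decreases, and Edn1, for the constrictor endothelin, was at 0.35 and did not pass (edgeR adjusted p = 0.288). Tek and Cdh5 also belong to the endothelial markers, and the fall of that whole list stands beside these values. Without ff replicate 1, Nos3 (edgeR adjusted p = 0.0854), S1pr1 (0.0658) and Cdh5 (0.0589) lost their calls. The alternatives were run for Nos3, S1pr1, Tek and Cdh5 of this list. Nos3 and S1pr1 also lost theirs without dd replicate 1 (edgeR adjusted p = 0.0615 and 0.0571) or dd replicate 2 (0.0877 and 0.0669).

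All 4 uterine genes linked to Klf5 rose, where 4.52% of all genes tested were called higher, and 2 of them (Muc1 and Cdh1) are also epithelial markers. The list was chosen with earlier results of these data known, so the count tests nothing about Klf5. Its genes are ones altered in Klf5-deleted uterus, and the direction of each alteration is not given here. The secreted protein gene Ltf stood at log2 5.27, the prostaglandin synthase gene Ptgs2 at 2.79, Cdh1, the epithelial cadherin, at 0.96 and the mucin gene Muc1 at 0.91 (edgeR adjusted p between 0.0238 and 0.0398). Muc1 lost its call without ff replicate 1 (0.0813), dd replicate 1 (0.0879) or dd replicate 2 (0.106), Cdh1 without ff replicate 1 (0.083) or dd replicate 2 (0.0607), and Ptgs2 without ff replicate 1 (0.112) or ff replicate 2 (0.0656), all in edgeR. These 4 genes and Klf5 were higher in the same 2 libraries as the epithelial markers.

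Replication licensing genes, which KLF15 represses in mouse uterine epithelium, gave 0 calls among 8 tested in edgeR and in DESeq2. Of the 8, 1 was lower at an unadjusted p under 0.05. All 8 log2 changes were below 0, between −0.56 and −0.21, and 6 of the 8 had both dd libraries below both ff libraries. Groups that did not overlap made up 62.8% of all genes tested, but that share adds both directions. The share of all genes with dd below ff was not counted, so the 6 of 8 has no matching background here. Mcm3 had 53.1 and 53.7 CPM in dd, against 95.5 and 62.2 CPM in ff, so the ff libraries differed by more than the dd pair did from the lower one. Without ff replicate 2, Mcm3, Mcm4 and Mcm6 passed (edgeR adjusted p = 0.0305, 0.034 and 0.034).

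Other lists held no edgeR call. Of 6 cell cycle genes linked to Klf4, Klf5 and Klf6, 2 were lower at an unadjusted p under 0.05 and DESeq2 called 0. The cyclin genes Ccne1 and Ccnb1 were at log2 −0.64 and −0.47 (edgeR adjusted p = 0.156 and 0.148). The cell cycle inhibitor gene Cdkn1a was at log2 0.03 and Ccnd1, for cyclin D1, at −0.22. Of 7 metabolic genes linked to Klf15, 1 was higher and 1 lower at an unadjusted p under 0.05, and DESeq2 called 1 lower, the glutamine synthetase gene Glul (edgeR log2 −0.74, adjusted p = 0.0762). Of 7 TGF-beta pathway genes around Klf10, 2 were higher and 2 lower at an unadjusted p under 0.05, and DESeq2 called 1 higher and 2 lower. These were Smad4 (edgeR log2 0.63, adjusted p = 0.0848), Tgfbr2 (−0.54, 0.0899) and Tgfb1 (−0.53, 0.0831).

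**Figure D5:**
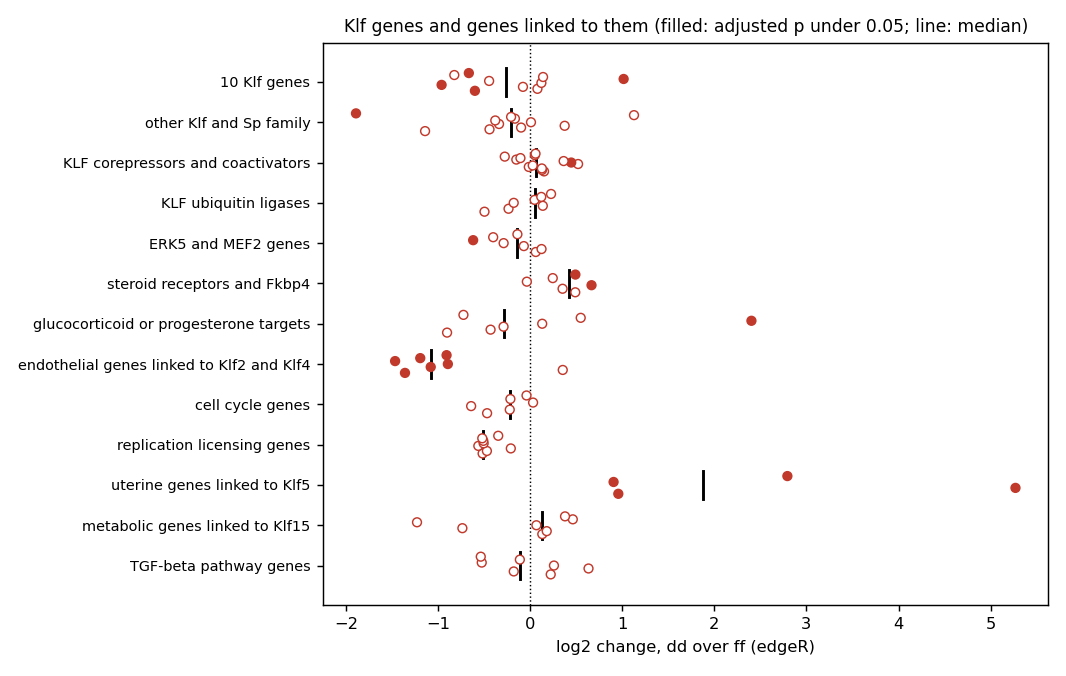
Log2 change of dd over ff (edgeR) for each tested gene of the Klf list and of 12 lists of genes linked to it, with filled points for an adjusted p under 0.05 and a black line at each list's median. The endothelial genes lie around −1.08, the 4 genes linked to Klf5 lie to the right of 0, and the other medians lie between −0.51 and 0.42.

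Some of the other cell type lists also held edgeR calls. Of 5 red cell genes 4 were called higher, the whole list summing to 237.5 and 305.4 CPM in dd, against 69.1 and 68.0 CPM in ff. The fifth, Hba-a2, a near-identical copy of Hba-a1 whose reads may be split between them, lay the other way at log2 −2.62 and did not pass (edgeR adjusted p = 0.174). Of 4 tested oviduct genes 2 were called higher, the whole list summing to 198.3 and 219.9 CPM in dd, against 110.8 and 85.0 CPM in ff. Another 1 of the 4 went the other way at log2 −0.98, with an unadjusted p under 0.05 in edgeR, and was not called. Of 9 macrophage genes 5 were called lower, the whole list summing to 210.3 and 202.0 CPM in dd, against 344.8 and 379.0 CPM in ff. Of 9 tested lymphocyte genes 3 were called higher and 1 lower, with Jchain, of antibody-secreting cells, at log2 3.84. In the pericyte list 2 of 4 were called lower (median −0.93). Of 8 smooth muscle genes edgeR called 0, none passed at an unadjusted p under 0.05 and DESeq2 called 0, the sum being 11323 and 6438 CPM in dd, against 8249 and 7015 CPM in ff. The gland list had 0 calls among 4 tested genes in edgeR, 1 higher at an unadjusted p under 0.05, and 1 higher and 1 lower in DESeq2. The part of any of these in the Klf values was not tested.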

How the data were processed

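TRIzol was used for RNA from day 4 uteri and a TruSeq kit for the libraries, per the labels' protocols, after poly-A purification per the series design text. STAR, edgeR and mm10 are named in the submitters' processing notes, and the sources used here give no versions, read counter or strand setting. The deposited table holds whole-number counts, the authors' rescaled values (signal, left untested), FPKM per the file headers (the design text says RPKM), and the authors' deposited fold (a ratio) and p-value. If counting ignored strand, Klf3, Klf7 and Klf13 could hold reads of 5 opposite-strand genes, which had at most 37 counts in any library.

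Counts were tested in edgeR 4.0.16 (R 4.3.3) with TMM factors, filterByExpr (minimum count 10), glmQLFit and glmQLFTest, and Benjamini-Hochberg adjustment over 18530 genes, with all 4 libraries and no block. SE is the size of the log2 change divided by the root of the F statistic. The test was run on simulated counts first. CPM uses TMM-scaled library sizes, in which 3 counts were 0.0901 to 0.127 CPM. Replicates differed by more than sampling noise (chi-square per degree of freedom 32.6 in dd and 32.0 in ff), so none was counted as a repeat. Gene positions are from GENCODE M21, on mm10, and promoters from RefSeq.

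Other settings tried were each library left out, a replicate block, DESeq2 factors, upper quartile factors, library size alone, no filter, 1 CPM in 2 libraries, DESeq2 1.42.0, limma-voom (limma 3.58.1) and limma-trend on log2(FPKM + 0.5). The Klf genes and all lists were chosen with earlier results of these data known. Named genes were the 10 Klf genes, up to 4 of each linked list with the smallest p, Mapk14, and the 3 genes with the profiles closest to each called Klf gene; further list members named were chosen after their values were seen. Same-numbered libraries did not deviate together (correlation across genes 0.00873), so the numbers were not taken as pairs.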

Additional observations from a re-analysis of the deposited data

How the results depend on the processing

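Leaving out 1 library gave between 0 and 1 called Klf genes, against 4 with all libraries. For all genes it gave between 90 and 1198 calls, against 1554, for the linked lists between 3 and 13, against 16, and for the cell type markers between 3 and 34, against 40. The lowest counts came without ff replicate 1 (for the Klf genes also without dd replicate 2), and these fits hold 3 libraries, with the lone one assumed to vary like the other group. Limma-trend on log2(FPKM + 0.5) called 2 Klf genes, Klf2 and Klf9. Over all genes, 2947 were called without a filter and 2864 by DESeq2. Signs turned for Klf6 without dd replicate 2 (log2 −0.13, range over left-out libraries −0.13 to 0.37), for Klf15 without dd replicate 1 (0.02) and without ff replicate 2 (0.23; range −0.33 to 0.23), and for Klf13 with the library size alone (−0.0040), none of them called; the cause was not tested. Of 130 values of the Klf genes under the alternatives, 106 kept sign and side of the threshold, 17 lost a call, 3 gained one and 4 turned. The scaling moved the share of calls that were higher in dd, at 53.9% under TMM (838 of 1554 calls), against 42.4% where library size alone set the scale (751 of 1771). With the replicate block, 5 Klf genes were called, Klf7 being added at an edgeR adjusted p of 0.0463, and 1531 genes in all. Pgr (0.0652), Hdac2 (0.0791) and Sp7 (0.0543) were not called under the block. Without a filter, where 2947 genes were called, edgeR also called 5 Klf genes, Klf7 among them (adjusted p = 0.0212). At least 352 counts stood behind each Klf value, and the precision is limited by having 2 libraries a group.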

Other observations

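Genes with profiles closest to each called Klf gene were ranked by the root mean square distance between log2 CPM values centred on each gene's mean over the 4 libraries, among 12430 tested genes with a mean of at least 5 CPM. Closest to Klf2 were Kif11, Kirrel and Hmox1, at distances of 0.016 to 0.03. Kif11 had 24.7 and 24.3 CPM in dd, against 53.2 and 42.3 CPM in ff. Closest to Klf5 were C77080, Slc25a13 and Slco3a1, at 0.0238 to 0.0386, and C77080 had 78.5 and 101.9 CPM in dd, against 43.8 and 46.6 CPM in ff. Closest to Klf9 were Ccdc88a, Tril and Crybg3, at 0.0161 to 0.024, and Ccdc88a had 24.3 and 24.6 CPM in dd, against 37.9 and 41.4 CPM in ff. Closest to Klf10 were Tmtc1, Soga1 and Clec2d, at 0.0177 to 0.0193. With 4 libraries in 2 groups many genes share a profile, so these ranks describe the libraries.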
